A study of Mus musculus with 8 samples.

Results

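The 8 genes Prdm1, Prdm14, Dppa3, Tfap2c, Ifitm1, Ifitm3, Kit and Alpl, which are used as markers of mouse primordial germ cells, were followed in the embryonic region of Foxa2 null and wild-type embryos. They were chosen by name as textbook germ cell genes, and every probe set (the group of short probes that measures 1 transcript) annotated to a single one of them was taken. This gave 7 probe sets for 7 genes among 12422 on the Affymetrix U74Av2 array, where no probe set was named Prdm14, and 11 probe sets for all 8 genes among 45037 on the MOE430v2 array. In all, single-gene probe sets named 8251 genes on U74Av2 and 18193 on MOE430v2. The questions were whether these genes gave a signal above background once the extra-embryonic region had been removed, and whether Foxa2 null embryos differed from wild-type embryos.

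Total RNA came from 2 wild-type pools of 53 and 50 embryos and 2 Foxa2 null pools of 53 and 48 embryos, collected at embryonic day 7.5 between mid-streak and head-fold stages with the sexes mixed. Both array types were hybridized with the same 4 extracts, so the 8 arrays hold 2 pools per genotype on either platform and the second platform adds no embryos. Wild-type embryos came from timed matings of ICR mice. Foxa2 null embryos grew from Foxa2 null embryonic stem cells combined with wild-type tetraploid host embryos. The host makes the extra-embryonic tissues, and its visceral endoderm stayed on the dissected embryos. The MOE430v2 labels of the mutant pools also read ICR and their U74Av2 labels give no strain, so no strain can be given for the mutant cells, and genotype and embryo origin cannot be told apart in these pools. The labels call the samples epiblast only, and no source used here says whether pools came from separate collections, so p-values measure the spread between pools. By the staging records wild-type pool 2 held fewer head-fold embryos than the other pools and was the youngest.

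Primordial germ cells are the founders of eggs and sperm. In the mouse they arise from a few proximal epiblast cells that receive Bmp signals from the extra-embryonic ectoderm, switch on Prdm1, Prdm14 and Tfap2c, keep or regain pluripotency genes, and gather at the base of the allantois, near the border where the extra-embryonic region is cut away. Several of these genes are not private to germ cells at this stage: Prdm1 is also used in endoderm, Tfap2c in the extra-embryonic ectoderm and surface ectoderm, Ifitm1 and Ifitm3 in mesoderm near the streak, Kit in blood and vascular precursors, and Alpl in the epiblast. In RNA from whole pools, fewer cells of a type and less RNA per cell cannot be told apart.

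Values are log2 signals, used as scaled by the authors on U74Av2 and after cyclic loess normalization on MOE430v2, unless a plain signal is named. Foxa2 itself (probe sets 93950_at and 1422833_at) had U74Av2 log2 signals of 7.37 and 8.08 in wild-type against 6.39 and 6.55 in Foxa2 null. On MOE430v2 its log2 signals were 9.62 and 10.17 in wild-type and 8.96 and 9.06 in Foxa2 null. Both mutant pools lay below both wild-type pools on either platform, and the limma adjusted p (Benjamini-Hochberg) was 0.130 on U74Av2 and 0.141 on MOE430v2. Whether these probe sets lie in the deleted part of the gene is not known here. Marker lists for the tissues a dissected embryo could hold gave sums of signals that differed between pools as follows. The summed signal of visceral endoderm genes (8 of 10 listed were measured on U74Av2 and 9 on MOE430v2) was 5446 and 5550 in wild-type and 8184 and 5576 in Foxa2 null on U74Av2, and 54954 and 62305 against 77598 and 63735 on MOE430v2, so Foxa2 null pool 1 stood highest on both. The summed signal of extra-embryonic ectoderm and trophoblast genes (6 of 9 measured on each platform) was 411 and 318 in wild-type and 337 and 264 in Foxa2 null on U74Av2, and 1810 and 1733 against 1762 and 1622 on MOE430v2. None of the markers in these lists was listed at 0, and Elf5, a defining gene of the extra-embryonic ectoderm, did not exceed the background limit described next on any of the 8 arrays. Under that limit, the MOE430v2 log2 signals of Elf5 were nevertheless 4.98 and 4.03 in wild-type and 6.41 and 6.14 in Foxa2 null, with the mutant pools higher, while on U74Av2 they overlapped at 3.69 and 0.49 against 3.07 and 2.72.

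Detection was read against genes that a gastrula should not use. A list of 50 genes of differentiated adult tissues was used (retina, mammary gland, pancreas, pituitary, brain, lung, immune cells and muscle among them). Of these, 42 were measured by 52 probe sets on U74Av2 and 45 by 62 probe sets on MOE430v2. A deposited signal counted as above background on an array when it exceeded the 95th percentile of those probe sets there. That limit lay between 131 and 157 signal units on U74Av2 and between 288 and 354 on MOE430v2. By it, 0 of the 7 germ cell probe sets were above background on all 4 U74Av2 arrays, where 25.7% of all probe sets were. On MOE430v2 5 of the 11 were above on all 4 arrays, where 29.6% of all probe sets were. These 5 measure Prdm1, Ifitm1, Ifitm3, Kit and Alpl. Against the epiblast-only label, 5 of 6 epiblast genes but also 9 of 9 visceral endoderm genes were above the limit on all 4 MOE430v2 arrays. At or under the limit on all 4 arrays were 4 probe sets on U74Av2 (Prdm1, Dppa3, Ifitm1 and Kit) and 4 on MOE430v2 (Prdm14, Dppa3, 1 of 3 for Tfap2c and 1 of 2 for Kit), where 66.4% and 59.7% of all probe sets were.

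Dppa3 and Prdm14, the members most restricted to germ cells and pluripotent cells, were not above background on any array. Dppa3 (chr6:122626424-122630271, GRCm38.p6; also called Stella), a maternal and germ cell protein that guards DNA methylation in the early embryo, had U74Av2 signals of 3.9 and 4.5 in wild-type and 1.9 and 8.7 in Foxa2 null, far under the limit. Its MOE430v2 signals were 150 and 81.0 in wild-type and 158 and 144 in Foxa2 null, below the limit on every array. Prdm14 (chr1:13113428-13127163), a chromatin regulator needed for germ cell specification and pluripotency, had MOE430v2 signals of 76.3 and 60.9 in wild-type and 91.2 and 80.6 in Foxa2 null. The Prdm14 probe set was also below the limit on every array, and a transcript held by a few cells in a pool may lie under what an array can register, so these values set no presence or absence of germ cells.

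**Figure D1:**
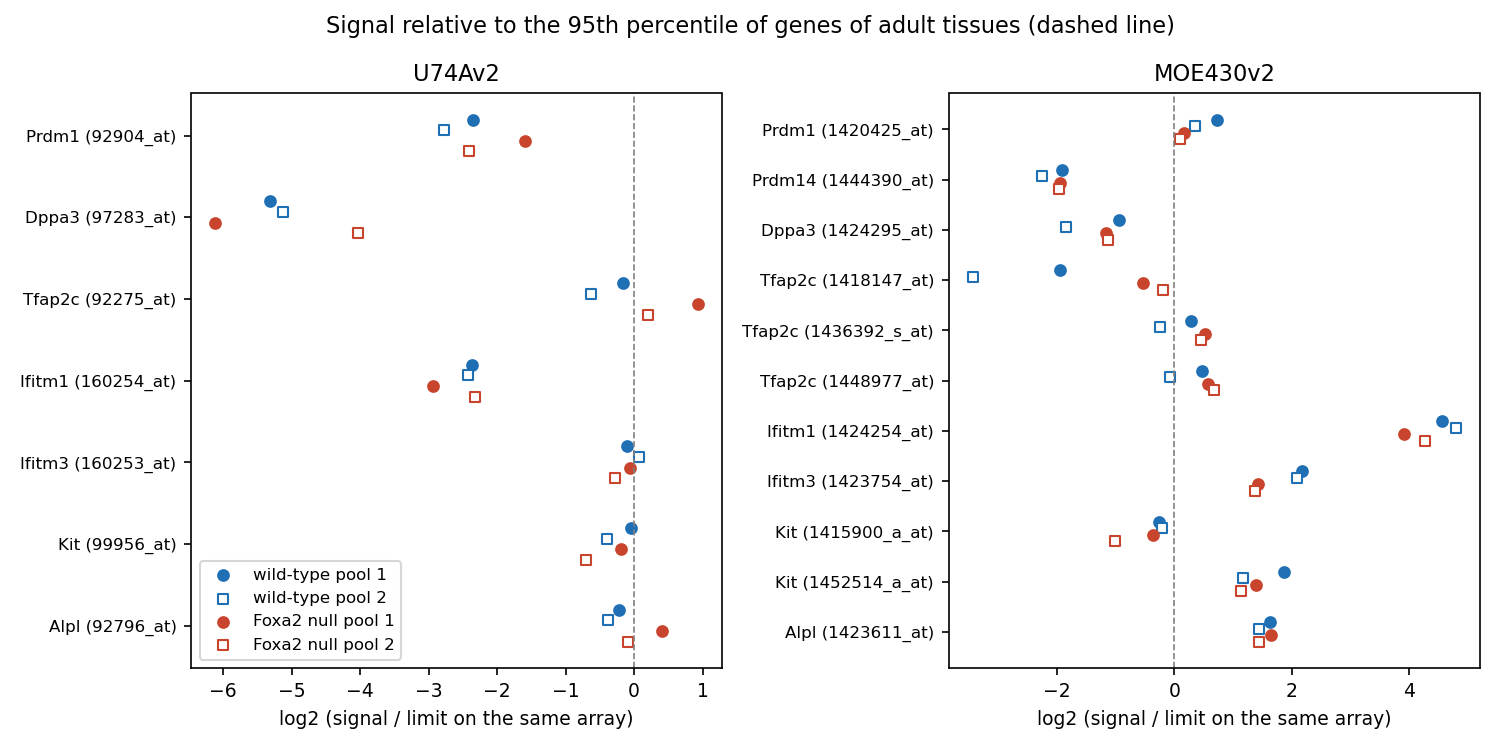
Signal of each germ cell probe set divided by the background limit of its own array, on a log2 axis, with 1 point per pool (blue wild-type, red Foxa2 null; filled pool 1, open pool 2); the dashed line is the limit, the 95th percentile of probe sets for genes of adult tissues. All points of Dppa3 and Prdm14 lie left of the line, and on MOE430v2 all points of Prdm1, Ifitm1, Ifitm3, Kit 1452514_a_at and Alpl lie right of it.

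Later germ line genes were likewise mostly under background. Of 6 such genes measured on U74Av2, all 6 stayed at or under the limit on all 4 arrays, and of 9 on MOE430v2, 8 did. The exception was Sycp3, a meiotic chromosome axis protein, which exceeded the limit on 2 of 4 MOE430v2 arrays. Among the tested genes of this list, Sycp3 had the highest MOE430v2 log2 ratio, 0.70 (SE 0.43; 0.07 to 1.33 with single pools left out), and Stra8, a gene of meiotic entry, the lowest at -0.59 (SE 0.54). Dazl, an RNA-binding protein of germ cells, was the only one tested on U74Av2, with a log2 ratio of 0.27 (SE 0.45).

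Foxa2 null was then compared with wild-type by limma over the 8695 U74Av2 and 31526 MOE430v2 probe sets that passed a filter on low signal. That filter kept 6 of the 7 germ cell probe sets on U74Av2, dropping Dppa3, and all 11 on MOE430v2. At a Benjamini-Hochberg adjusted p under 0.05, 0 of the 6 germ cell probe sets were lower and 0 higher on U74Av2, where limma called 0.173% of all tested probe sets lower and 0.104% higher. On MOE430v2 0 of the 11 were lower and 0 higher, where limma called 0.244% lower and 0.190% higher. Before adjustment, at a p under 0.05, 0 were lower and 1 higher on U74Av2 (5.01% of all probe sets in each direction), and 2 were lower and 3 higher on MOE430v2 (6.07% and 6.03% of all). The 1 on U74Av2 and the 3 on MOE430v2 are all the Tfap2c probe sets there are, and the 2 lower ones measure Ifitm1 and Ifitm3. Taken 1 probe set per gene, the median log2 ratio of Foxa2 null over wild-type was -0.04 over the 6 genes tested on U74Av2 and 0.07 over the 8 on MOE430v2, beside medians of -0.018 and -0.00072 over all probe sets tested. With 2 pools against 2, an exact permutation test of a single value cannot give a p under 0.333, so the tests rest on limma's shared variance.

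By separation of the pools, both Foxa2 null pools lay below both wild-type pools at 3 of 6 germ cell probe sets on U74Av2 (21.4% of all tested probe sets) and above them at 2 of 6 (18.6% of all). On MOE430v2 they lay below at 2 of 11 (21.8% of all) and above at 4 of 11 (21.5% of all). Tfap2c was the one gene whose mutant pools stood above wild-type on both platforms, and Ifitm1 and Ifitm3 the ones whose mutant pools stood below on both.

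**Figure D2:**
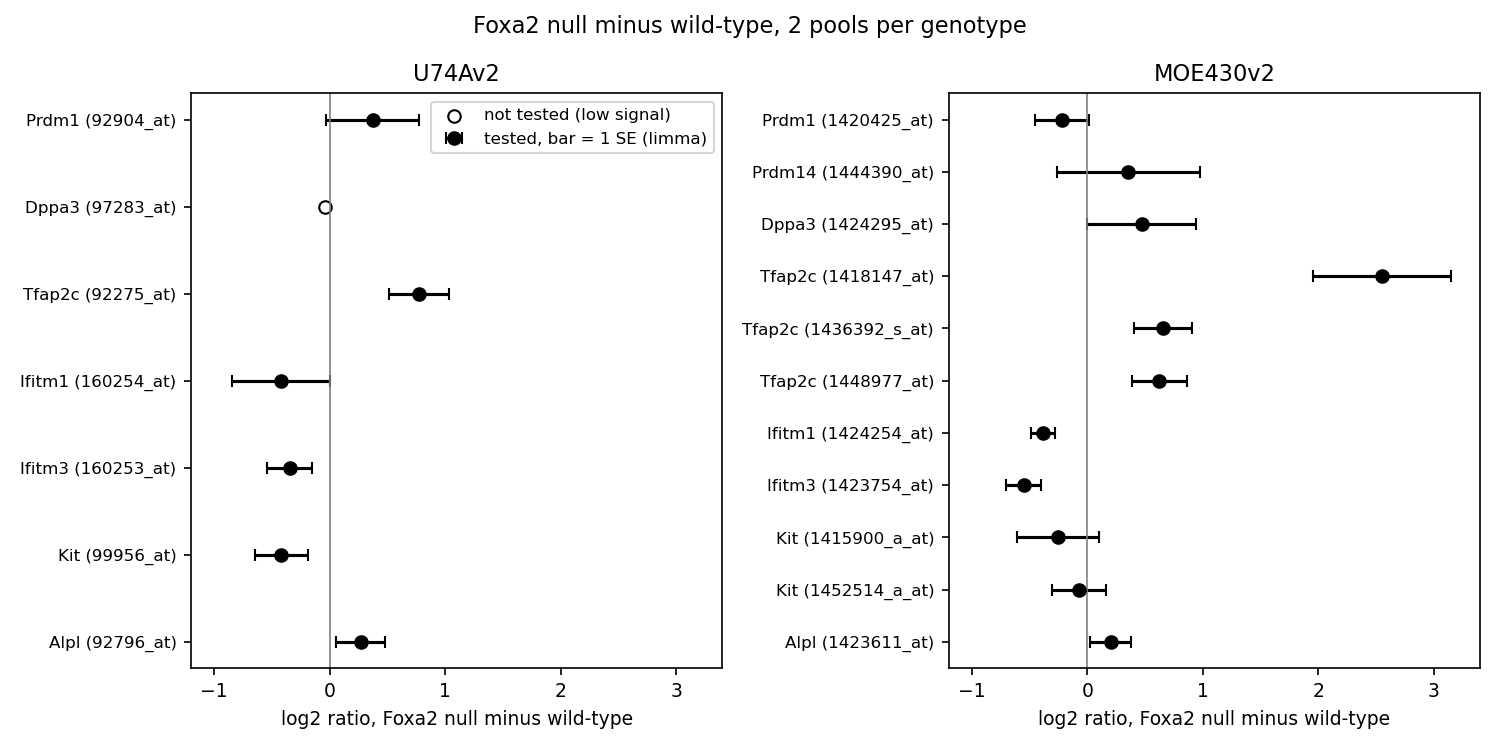
Log2 ratio of Foxa2 null over wild-type for each germ cell probe set on U74Av2 (left) and MOE430v2 (right), with bars of 1 SE from limma and 2 pools per genotype; the open point is the Dppa3 probe set that was not tested. The 4 Tfap2c probe sets lie between 0.62 and 2.55, and those of Ifitm1 and Ifitm3 lie between -0.35 and -0.55.

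Tfap2c (chr2:172545678-172558622) encodes the transcription factor AP-2 gamma, which acts with Prdm1 and Prdm14 in germ cell precursors and is also known from trophoblast and surface ectoderm. On U74Av2 (92275_at) its log2 signals were 7.12 and 6.66 in wild-type and 7.97 and 7.35 in Foxa2 null. Foxa2 null pool 1 was highest and wild-type pool 2 lowest, and the genotypes did not overlap. The log2 ratio was 0.77 (SE 0.26), a 1.70-fold higher mean, with a limma adjusted p of 0.336. The ratio was 0.46 without Foxa2 null pool 1.

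All 3 MOE430v2 probe sets of Tfap2c separated the genotypes in the same direction. At 1418147_at the log2 signals were 6.04 and 4.54 in wild-type and 7.81 and 7.88 in Foxa2 null, a log2 ratio of 2.55 (SE 0.59) with a limma adjusted p of 0.126. Both mutant pools were close together and far above either wild-type pool, although the probe set exceeded the background limit on 0 of 4 arrays, so its 5.87-fold ratio rests on signals within the range of the adult-tissue genes. At 1436392_s_at, whose suffix marks probes shared between transcripts, the log2 signals were 8.39 and 7.93 in wild-type and 8.95 and 8.69 in Foxa2 null. At 1448977_at they were 8.58 and 8.10 in wild-type and 9.01 and 8.92 in Foxa2 null. These latter probe sets exceeded the limit on 3 of 4 arrays each, all but that of wild-type pool 2, and their log2 ratios were 0.66 (SE 0.25) and 0.62 (SE 0.24) with limma adjusted p of 0.347 and 0.346. At all 4 probe sets of Tfap2c the younger wild-type pool 2 was below wild-type pool 1. With wild-type pool 2 left out the log2 ratios were 0.54 on U74Av2 and 1.80, 0.43 and 0.38 on MOE430v2. The summed trophoblast markers were not higher in the mutant pools, and the 3 tested genes of that list on MOE430v2 all had log2 ratios below 0. Of the 4 tested on U74Av2, 2 were below 0 and 2 above. Elf5, which was under the background limit on every array and not tested, was higher in the mutant pools on MOE430v2 only (values above). The part of extra-embryonic ectoderm, visceral endoderm, stage or embryo origin in the Tfap2c values was not tested.

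**Figure D3:**
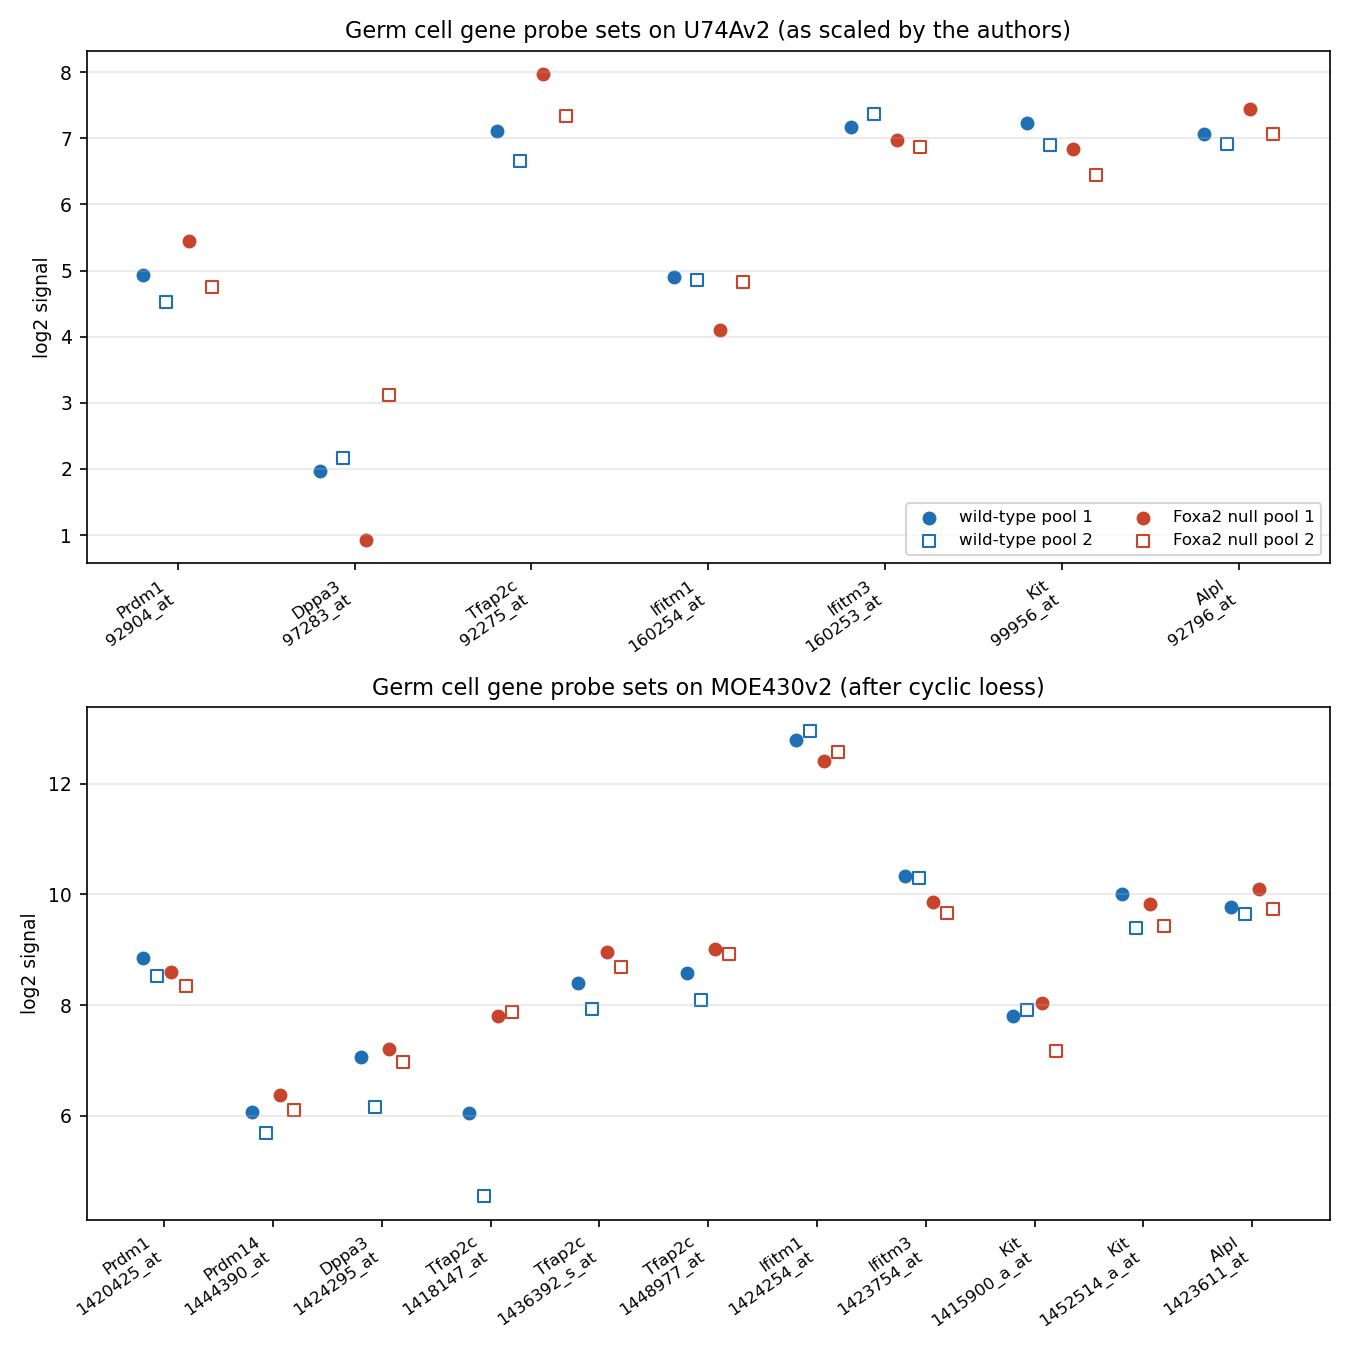
Log2 signal of every germ cell probe set in each pool on U74Av2 (top) and MOE430v2 (bottom); blue is wild-type, red is Foxa2 null, filled circles are pool 1 and open squares pool 2. Red points lie above blue points at every Tfap2c probe set and below them at every Ifitm1 and Ifitm3 probe set, while Kit and Dppa3 on MOE430v2 overlap; heights are not comparable between probe sets.

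Ifitm1 and Ifitm3 (chr7:140967429-140969827 and chr7:141009590-141010744) encode interferon-induced transmembrane proteins, known in the embryo as fragilis family members of nascent germ cells and of the mesoderm around them. On MOE430v2 the log2 signals of Ifitm1 (1424254_at) were 12.79 and 12.96 in wild-type and 12.42 and 12.58 in Foxa2 null. The log2 ratio was -0.38 (SE 0.10; 1.30-fold lower in Foxa2 null), with a limma adjusted p of 0.181. Each genotype's pools lay within a narrow band and the bands did not overlap.

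Ifitm3 (1423754_at) had MOE430v2 log2 signals of 10.34 and 10.30 in wild-type and 9.87 and 9.67 in Foxa2 null. The wild-type pools were nearly equal there, and both mutant pools lay below them. The log2 ratio was -0.55 (SE 0.15; 1.46-fold lower), with a limma adjusted p of 0.191. On U74Av2 Ifitm3 (160253_at) had log2 signals of 7.18 and 7.36 in wild-type and 6.97 and 6.87 in Foxa2 null, again without overlap, a log2 ratio of -0.35 (SE 0.19) and a limma adjusted p of 0.609.

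The U74Av2 probe set of Ifitm1 (160254_at) was under the background limit on all 4 arrays. Its log2 signals were 4.91 and 4.86 in wild-type and 4.10 and 4.83 in Foxa2 null, so the log2 ratio of -0.42 (SE 0.42; limma adjusted p 0.815) rested on mutant pool 1, and without that pool it was -0.05. Another family member, Ifitm2, had MOE430v2 log2 signals (1417460_at) of 12.76 and 12.72 in wild-type and 12.14 and 12.47 in Foxa2 null. Its log2 ratio was -0.43 (SE 0.12), the lowest among tested genes of the family list on that platform, with a limma adjusted p of 0.191. On U74Av2 (93018_at), under the background limit on all 4 arrays, the log2 signals of Ifitm2 overlapped at 6.19 and 4.96 in wild-type and 5.79 and 5.58 in Foxa2 null, with a ratio of 0.11 (SE 0.40; limma adjusted p 0.959). Ifitm genes are close relatives that lie near each other on chromosome 7, and whether probes of one also pick up RNA of another was not tested. Among tested genes, Ifitm6 was the lowest of the family list on U74Av2, at a log2 ratio of -0.31 (SE 0.45). Tfap2a, a relative of Tfap2c in surface ectoderm and neural crest, was the highest tested on both platforms, at 0.27 (SE 0.27) and 0.31 (SE 0.20). The U74Av2 probe sets of Ifitm6 and Tfap2a were under the background limit on every array.

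Promoter windows of RefSeq transcripts (GRCm38.p6, 250 bases before to 50 after the start) were given for Prdm1, Ifitm1, Ifitm3, Kit and Alpl and for Ifitm2. They were searched on both strands for the forkhead core TGTTTAC, since Foxa2 is a forkhead factor, and for the core of the interferon-stimulated response element, GAAANNGAAA, since Ifitm genes respond to interferon. Of 32851 mouse windows of this length, 3.65% hold the first motif and 3.44% the second. Ifitm1 and Prdm1 each hold 1 forkhead match, Ifitm3 holds 2 interferon-type matches that do not overlap and Ifitm2 holds 1, and the windows of Kit and Alpl hold neither. The 30-base stretches around matches are shown for Ifitm1, Ifitm2 and Ifitm3, whose MOE430v2 signals were lower in both mutant pools, with Prdm1 as the other forkhead match. They are written 5′ to 3′ along the gene with the match in capitals, reading as the reverse complement of the motif for the forkhead matches.
Prdm1, chr10:44458962-44458991, minus strand, match at -231 from the start: atcgtagtgtggGTAAACAtggagggcaag
Ifitm1, chr7:140968096-140968125, plus strand, match at 35 after the start: aagcacaccaaattGTAAACAtaaggaagt
Ifitm3, chr7:141010706-141010735, minus strand, match at 20 after the start: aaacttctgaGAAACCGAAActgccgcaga
Ifitm2, chr7:140955988-140956017, minus strand, match at -46 from the start: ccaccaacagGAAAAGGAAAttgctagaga
The forkhead core is thus in the window of Ifitm1 but not in that of Ifitm3, and the interferon-type core in Ifitm3 and Ifitm2 but not Ifitm1. A match is a run of letters and does not show binding.

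Prdm1 (chr10:44437174-44528558) encodes Blimp1, the repressor that turns off the somatic programme in germ cell precursors. On MOE430v2 (1420425_at) its log2 signals were 8.85 and 8.53 in wild-type and 8.59 and 8.35 in Foxa2 null. The genotypes overlapped, and the log2 ratio of -0.22 (SE 0.23) had a limma 95% interval of -0.75 to 0.31 and an adjusted p of 0.757. On U74Av2 (92904_at), under the background limit on every array, log2 signals were 4.93 and 4.52 in wild-type and 5.45 and 4.74 in Foxa2 null, with a log2 ratio of 0.37 (SE 0.40). Without Foxa2 null pool 1 the U74Av2 ratio was 0.02, so most of its size rested on that pool. Neither platform's ratio passed the test.

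For Dppa3 and Prdm14 the interval of the ratio held values of both signs. On MOE430v2 (1424295_at) Dppa3 had log2 signals of 7.07 and 6.16 in wild-type and 7.20 and 6.97 in Foxa2 null, where wild-type pool 2 alone was low, and the log2 ratio was 0.47 with a limma 95% interval of -0.60 to 1.54 (adjusted p 0.737). Without wild-type pool 2 the Dppa3 ratio was 0.02. Prdm14 (1444390_at) had log2 signals of 6.07 and 5.69 in wild-type and 6.38 and 6.09 in Foxa2 null. The lower mutant pool stood only just above the higher wild-type pool, and the log2 ratio was 0.36 with a limma 95% interval of -1.05 to 1.76 (adjusted p 0.867).

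Kit (chr5:75574987-75656722) is the receptor tyrosine kinase by which germ cells take up Kit ligand for survival and migration. On U74Av2 (99956_at) its log2 signals were 7.23 and 6.90 in wild-type and 6.84 and 6.45 in Foxa2 null, a log2 ratio of -0.42 (SE 0.23) with a limma adjusted p of 0.607. The mutant pools were lower there, but the MOE430v2 probe sets, both of which read alternative transcripts of the gene, did not separate the genotypes. At 1452514_a_at the log2 signals were 10.01 and 9.39 in wild-type and 9.83 and 9.42 in Foxa2 null, a ratio of -0.07 (limma 95% interval -0.60 to 0.46; adjusted p 0.935). At 1415900_a_at, under the limit on all 4 arrays, they were 7.80 and 7.90 in wild-type and 8.04 and 7.16 in Foxa2 null, a ratio of -0.25 (SE 0.35; limma adjusted p 0.823). The summed signal of 7 primitive blood genes, a tissue that also uses Kit, was 208 and 404 in wild-type and 434 and 222 in Foxa2 null on U74Av2, so it differed more within a genotype than between genotypes.

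Alpl (chr4:137741731-137796384) encodes tissue-nonspecific alkaline phosphatase, the enzyme of the classical stain for germ cells. Its MOE430v2 log2 signals (1423611_at) were 9.78 and 9.65 in wild-type and 10.10 and 9.73 in Foxa2 null, overlapping, with a log2 ratio of 0.20 (limma 95% interval -0.20 to 0.60; adjusted p 0.693). On U74Av2 (92796_at) they were 7.06 and 6.91 in wild-type and 7.45 and 7.06 in Foxa2 null, a log2 ratio of 0.27 (SE 0.21; limma adjusted p 0.745), and mutant pool 2 was nearly equal to wild-type pool 1. Foxa2 null pool 1 was the highest of the 4 on both platforms.

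Genes around the germ cell programme were counted by lists, each gene by its brightest probe set. The highest and lowest genes of a list are given among those that passed the filter on low signal, and dimmer genes, for example Wnt3 of the inducing signals on MOE430v2 (log2 ratio 2.73, not tested), could lie beyond them. No gene of any list passed a limma adjusted p under 0.05 on either platform. Genes of the signals that induce germ cells, most of them in the Bmp pathway, split in both directions. Of 7 tested on U74Av2, 3 had log2 ratios below 0 and 4 above (median 0.18), and of 7 on MOE430v2, 5 were below and 2 above (median -0.02). Smad1, the signal transducer of Bmp receptors that germ cell formation needs, was the highest tested gene of the list on both platforms. Its log2 signals were 8.23 and 8.33 in wild-type and 8.92 and 9.21 in Foxa2 null on U74Av2, a ratio of 0.79 (SE 0.16; limma adjusted p 0.133). On MOE430v2 they were 10.53 and 10.27 in wild-type and 10.86 and 10.99 in Foxa2 null, a ratio of 0.52 (SE 0.14; limma adjusted p 0.184). The lowest tested were Bmp4, the inducing ligand, at -0.29 (SE 0.18) on U74Av2 and Smad5, a close relative of Smad1, at -0.47 (SE 0.17) on MOE430v2. Of the 10 genes listed, 9 were measured on each platform. T (Brachyury), also listed, had no single-gene probe set matched to that name and is not ranked here. The paper reports T as reduced in Foxa2 null on both array types, with its own log2 ratios lower than these of Bmp4 and Smad5.

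Among genes that keep germ cells alive and guide them, Kitl, the ligand of Kit, was the lowest tested on both platforms. Its log2 signals were 6.94 and 7.20 in wild-type and 6.27 and 6.34 in Foxa2 null on U74Av2, a ratio of -0.76 (SE 0.21; limma adjusted p 0.229). On MOE430v2 they were 10.24 and 10.21 in wild-type and 9.42 and 9.53 in Foxa2 null, a ratio of -0.75 (SE 0.15; limma adjusted p 0.082). The spread within either genotype was well under the distance between genotypes, although the U74Av2 probe set was under the background limit on all 4 arrays. Cxcl12, the chemokine that draws migrating germ cells, lay the other way and was the highest tested on both platforms, with log2 ratios of 0.55 (SE 0.18) on U74Av2 and 0.49 (SE 0.14; limma adjusted p 0.198) on MOE430v2. Sall4, a zinc finger factor of pluripotent and germ cells, was slightly lower without overlap, at -0.17 (SE 0.14) and -0.07 (SE 0.08). Of the list, 3 of 6 tested genes were below 0 on U74Av2 (median 0.04) and 4 of 9 on MOE430v2 (median 0.00).

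The listed pluripotency genes shared with germ cells stood mostly higher in Foxa2 null. Of 8 tested on U74Av2, 7 had log2 ratios above 0 (median 0.85), and of 12 on MOE430v2, 9 did (median 0.51). Of the 12 genes measured on each platform, 8 on U74Av2 and 4 on MOE430v2 were at or under the background limit on every array. The tested ones among them were Dppa4, Dppa5a, Klf4 and Tdgf1 on U74Av2 and Dppa2, Dppa4, Klf2 and Zfp42 on MOE430v2. Tdgf1, a Nodal co-receptor, was the highest tested on both platforms, at 1.81 (SE 0.72) and 2.21 (SE 0.54), but with single pools left out it ranged from 0.73 to 2.89 on U74Av2 and from 1.39 to 3.02 on MOE430v2. Its MOE430v2 log2 signals were 6.57 and 8.19 in wild-type and 8.91 and 10.26 in Foxa2 null, with a limma adjusted p of 0.147.

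Klf4, a factor of naive pluripotency, had MOE430v2 log2 signals of 7.63 and 7.70 in wild-type and 9.45 and 8.86 in Foxa2 null. Its log2 ratio was 1.49 (SE 0.27; limma adjusted p 0.058) there and 0.92 (SE 0.27; limma adjusted p 0.253) on U74Av2. Nanog, the homeobox factor of pluripotent cells that returns in germ cells, had MOE430v2 log2 signals of 8.83 and 9.33 in wild-type and 9.60 and 10.27 in Foxa2 null. Its log2 ratio was 0.85 (SE 0.26) there and 0.79 (SE 0.33) on U74Av2, and without Foxa2 null pool 2 it was 0.52 and 0.25. Dppa5a, an RNA-binding protein of embryonic stem and germ cells, had log2 ratios of 1.76 (SE 0.39) and 0.92 (SE 0.26), and Utf1, a chromatin factor of the epiblast, 0.51 (SE 0.19) and 1.06 (SE 0.30), on U74Av2 and MOE430v2 in turn. On U74Av2 the probe sets of Tdgf1, Klf4 and Dppa5a were under the background limit on all 4 arrays.

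Sox2, a pluripotency and neural factor, was the lowest tested on both platforms, at -0.40 (SE 0.21) and -0.37 (SE 0.13), and without Foxa2 null pool 1 the U74Av2 value was -0.09. Pou5f1, which encodes Oct4, lay near 0 at 0.13 (SE 0.16) and 0.04 (SE 0.16). For Tdgf1, Nanog, Utf1 and Dppa5a on MOE430v2 the younger wild-type pool 2 was higher than wild-type pool 1, and mutant pool 2 higher than mutant pool 1, so these genes varied within each genotype as well as between them. Klf4 did not share that order, as its wild-type pools were nearly equal and mutant pool 1 was the higher one.

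**Figure D4:**
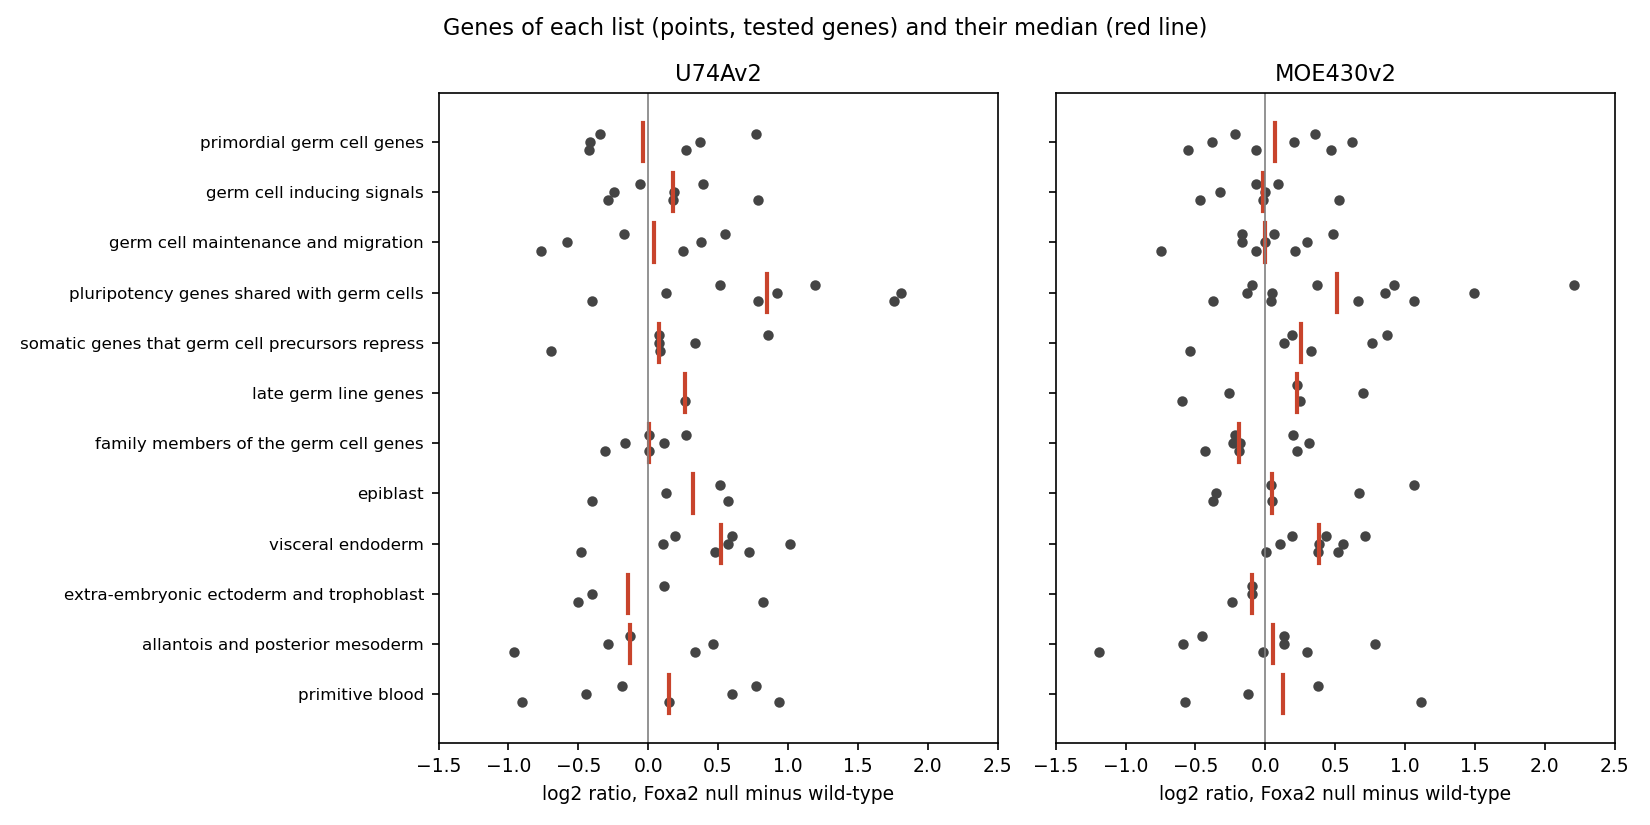
Log2 ratio of Foxa2 null over wild-type for each tested gene (points, brightest probe set per gene) of the germ cell genes, the related lists and the tissue marker lists, on U74Av2 (left) and MOE430v2 (right); red lines are list medians and the grey line marks equal signal. The pluripotency list has medians of 0.85 and 0.51 and the visceral endoderm list 0.52 and 0.38, while the germ cell genes lie on both sides of 0. Several of the pluripotency genes shown were under the background limit on every array of a platform.

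Among mesodermal and other somatic genes that germ cell precursors are known to hold down, of 6 tested, 5 had log2 ratios above 0 on either platform (medians 0.08 and 0.26). The ends on U74Av2 were Mesp1, a mesoderm factor, at 0.86 (SE 0.36; 0.35 without Foxa2 null pool 2) and Fgf8, a streak ligand, at -0.69 (SE 0.52; 0.13 without Foxa2 null pool 1). On MOE430v2 they were Lhx1, a factor of axial and intermediate mesoderm, at 0.87 (SE 0.35, or 0.30 without Foxa2 null pool 2) and Hoxb1, a Hox gene, at -0.54 (SE 0.18). On the other platform Fgf8 was at 0.19 (SE 0.28) and Hoxb1 at 0.08 (SE 0.19), so neither was lower in Foxa2 null on both. Mesp1 was at 0.76 (SE 0.32) on MOE430v2 and Lhx1 at 0.08 (SE 0.34) on U74Av2. The U74Av2 probe sets of Fgf8 and Lhx1 were under the background limit on every array.

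The tissue lists gave the surroundings in which the germ cell values were read. Visceral endoderm genes had log2 ratios above 0 for 7 of 8 on U74Av2 (median 0.52) and 9 of 9 on MOE430v2 (median 0.38). The paper states that mutant embryos keep their wild-type visceral endoderm, while wild-type embryos displace theirs. By its account the mutant thus appears enriched for visceral endoderm markers, and genes truly higher cannot be told apart from that enrichment. Apob, Apoa4, Cubn and Mttp, which serve lipoprotein export and endocytic uptake, were separated and higher in Foxa2 null on both platforms. Their log2 ratios on U74Av2 were 0.60 (SE 0.16), 0.72 (SE 0.19), 0.48 (SE 0.22) and 1.02 (SE 0.33), the last from a Mttp probe set under the background limit on all 4 arrays. That of Cubn was 0.10 without Foxa2 null pool 1. On MOE430v2 they were 0.71 (SE 0.18), 0.56 (SE 0.20), 0.52 (SE 0.14) and 0.38 (SE 0.13). The lowest tested were Rbp4 at 0.00 (SE 0.18) on MOE430v2 and Afp at -0.48 (SE 0.21) on U74Av2, where the platforms disagreed, since the MOE430v2 ratio of Afp was 0.43 (SE 0.093).

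Tested epiblast genes ran from Sox2, given above, to Fgf5 at 0.57 (SE 0.40) on U74Av2 and Utf1 on MOE430v2, with medians of 0.32 and 0.05. The tested extra-embryonic ectoderm and trophoblast genes ran from Ets2 at -0.50 (SE 0.21) to Ascl2 at 0.82 (SE 0.54) on U74Av2, and from Esx1 at -0.24 (SE 0.31) to Plac1 at -0.09 (SE 0.19) on MOE430v2. In the allantois and posterior mesoderm, where germ cells gather, Hand1 was the highest tested on both platforms, at 0.47 (SE 0.18) and 0.78 (SE 0.14; limma adjusted p 0.055 on MOE430v2), with both mutant pools above wild-type. Vcam1, an adhesion molecule of the allantois, was the lowest tested on both, at -0.96 (SE 0.78) and -1.19 (SE 0.36). Tested primitive blood genes ran from Hbb-y at -0.91 (SE 0.63) to Klf1 at 0.93 (SE 0.35) on U74Av2, and from Hbb-bh1 at -0.57 (SE 1.04) to Hba-x at 1.12 (SE 1.33) on MOE430v2. The U74Av2 probe sets of Fgf5, Ets2, Ascl2, Vcam1, Hbb-y and Klf1 were under the background limit on every array. So were the MOE430v2 probe sets of Esx1 and Hba-x.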

How the data were processed

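The deposited values are MAS5 signals, that is, a linear intensity for each probe set, which the authors had scaled array by array to a common target. Trimmed means were 149 (U74Av2) and 498 (MOE430v2) on every array. The methods name a different U74Av2 target and a loess step that the MOE430v2 values do not show. Probe sets were named from the platform annotation, updated through gene identifiers.

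Signals were floored at 0.1 and taken to log2 in R 4.3.3 with limma 3.58.1. On MOE430v2 log2 signals then went through limma's cyclic loess. The 66 and 64 control probe sets were removed, as were the 30% of probe sets dimmest on average. Foxa2 null minus wild-type was fitted per platform (lmFit, eBayes with intensity trend, two-sided, Benjamini-Hochberg over all probe sets tested), without a block. The procedure was tested on simulated data, where it called 42.1% of log2 changes of 1 on U74Av2 and 23% on MOE430v2. Of log2 changes of 2 it called 90% and 67.2%, so a change of log2 1 or less could often be missed. The number of arrays limits the precision. The methods' probe-level change calls were not repeated.

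Named are all germ cell probe sets, Foxa2, and list genes whose genotypes were apart on both platforms, that passed the threshold or that were the ends of their list. Elf5 and Pou5f1 were added after their values were seen. Members and lists were chosen with earlier results of these data known. Other normalizations, filters and offsets, a fit without the trend, a replicate block and leaving out each pool were tried.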

Additional observations from a re-analysis of the deposited data

How the results depend on the processing

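The count of germ cell probe sets past the threshold stayed at 0 on both platforms under each normalization, filter, offset and variance setting and with each pool left out; only the paired fit changed it. With the pool number as a replicate block (1 residual degree of freedom), 1 passed on U74Av2 (Tfap2c, limma adjusted p 0.0293) and 3 on MOE430v2 (Tfap2c 1418147_at, 0.00411; Ifitm1, 0.00607; Ifitm3, 0.0239), while all calls went to 292 from 24 and to 1643 from 137. The labels do not say what the numbers share, and no source used here pairs the samples. Over all tested probe sets the deviations of same-numbered pools correlated at 0.111 on U74Av2 and 0.0851 on MOE430v2. Such a correlation cannot show whether same-numbered pools were collected together. The block also passed 6 named list genes on U74Av2 (Smad1, Dppa5a, Nanog, Mesp1, Apoa4 and Apob) and 16 on MOE430v2 (Smad1, Cxcl12, Kitl, Dppa5a, Klf4, Nanog, Tdgf1, Utf1, Hoxb1, Lhx1, Ifitm2, Apoa4, Apob, Cubn, Hand1 and Vcam1), with limma adjusted p from 3.13e-08 (Tdgf1) to 0.0421 (Vcam1). All calls were 3 and 43 with no filter, 38 and 325 with the lowest 50% left out, 0 and 0 without the intensity trend, and 241 on MOE430v2 with an offset of 50. With single pools left out they ranged from 15 (without Foxa2 null pool 1) to 38 (without Foxa2 null pool 2) on U74Av2 and from 32 (without wild-type pool 2) to 239 (without Foxa2 null pool 2) on MOE430v2, with 59 without wild-type pool 1. The count of germ cell probe sets above background on all 4 arrays was 4 on U74Av2 with the median of all probe sets as the limit and 1 on MOE430v2 (Ifitm1) with the highest adult-tissue probe set as the limit. Of the germ cell ratios under alternatives 193 kept their sign and side of the threshold, 4 newly passed (all with the block) and 3 turned sign, all Kit on MOE430v2. With single pools left out, Kit 1452514_a_at ranged from -0.38 to 0.24 and Kit 1415900_a_at from -0.69 to 0.18, Fgf8 on U74Av2 from -1.51 to 0.13, Vcam1 on U74Av2 from -2.26 to 0.34, and on MOE430v2 Rbp4 from -0.33 to 0.33, Hba-x from -1.11 to 3.34 and Hbb-bh1 from -2.43 to 1.28. On MOE430v2 Klf4, Hand1 and Kitl had limma adjusted p of 0.0321, 0.0285 and 0.0499 with the lowest 50% left out, and Klf4 and Hand1 had 0.0464 and 0.0409 with the offset. Without Foxa2 null pool 1, Tdgf1 (0.0295), Utf1 (0.0433) and Hand1 (0.0211) passed there, and without Foxa2 null pool 2, Klf4 (0.0310), Apoa4 (0.0413), Apob (0.0355) and Cubn (0.0133). Leaving out 1 pool moved the ratio by over 1.5 times for 5 of 6 germ cell probe sets on U74Av2 (not Ifitm3), for 8 of 11 on MOE430v2 (not Ifitm1, Ifitm3 and Tfap2c 1418147_at), and for 17 of 28 named list genes on each platform. So moved, Alpl ranged from 0.08 to 0.46 on U74Av2 and from 0.02 to 0.39 on MOE430v2, Kit on U74Av2 from -0.61 to -0.22, Prdm1 on MOE430v2 from -0.38 to -0.06 and Prdm14 from 0.17 to 0.54. The causes were not tested.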
